A study of Arabidopsis thaliana with 47 samples.

Results

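The ARGONAUTE (AGO) family of Arabidopsis thaliana was examined in RNA-seq and ChIP-seq data. Its 10 members, AGO1 to AGO10, were chosen by gene identifier from the 33602 genes of the expression tables. The rule uses no measured value, but the family was picked with earlier results of these data known. They were followed in 9 RNA-seq libraries and in the peak lists of 22 ChIP-seq libraries. The RNA-seq libraries fall into 3 groups of 3, labelled nrpe1 (a mutant of the largest subunit of RNA polymerase V), hex (a line with mutations in 6 MORC genes) and wild type, all in the Columbia-0 strain and all without a transgene named in the labels. The ChIP-seq libraries hold FLAG-tagged MORC7 in nrpd1 (2), nrpe1 (2), nrpd1 nrpe1 (2), dms3 (3), met1 (1) and plants without such a mutation (3, called wild type for MORC7 below), and FLAG-tagged MORC4 (2). In plants that carry both MORC7-FLAG and ZF-DMS3-HA, a fusion of DMS3 with an artificial zinc finger under the UBQ10 promoter, HA and FLAG were each precipitated in 1 library. Controls were 1 HA ChIP of MORC7-FLAG plants and 2 FLAG ChIPs of wild-type plants without a tag, whose source labels also call them ChIP inputs. Pol II was profiled in hex and in wild type, with 1 library each. The tagged MORC7 and MORC4 are transgenes under their own promoters in lines that lack the endogenous gene (morc7 and morc4 mutants), and the MORC7 line was crossed into the mutants. The labels give an age of 5 to 6 weeks for all samples, and the authors used floral tissue for ChIP-seq. The tissue of the RNA-seq libraries is checked below. The labels do not say whether replicates came from separate plants, so p-values measure the spread between these libraries.

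AGO proteins carry a small RNA and use it to find complementary transcripts, which they cut, repress or, in the case of AGO4 and AGO6, use as a platform for DNA methylation. In plants the family falls into clades of AGO1, AGO5 and AGO10, of AGO2, AGO3 and AGO7, and of AGO4, AGO6, AGO8 and AGO9. MORC proteins are ATPases involved in gene silencing and chromatin compaction. The authors located MORC4 and MORC7 mainly at sites of RNA-directed DNA methylation (RdDM), the pathway in which AGO4 and its relatives bind transcripts of Pol V.

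The labels of the mutant groups were checked on the mutated genes. MORC1 had 1.77 to 2.06 TPM (RSEM's transcript share, a unit scaled for gene length and library size) in the libraries labelled nrpe1, 7.70 to 9.17 TPM in those labelled hex and 7.42 to 8.08 TPM in wild type. NRPE1 had 1.08 to 1.73 TPM in the libraries labelled nrpe1, 0.50 to 0.62 TPM in those labelled hex and 1.27 to 1.74 TPM in wild type. The mutated genes thus go against both labels, and the groups are called by their labels throughout. The tissue label was checked as well. The labels give floral tissue of 5 to 6 weeks, but the extraction notes of these RNA samples also name leaves of seedlings aged 3 weeks. The summed level of 7 floral organ markers lay between 1.80 and 3.83 TPM over the 9 libraries, with none of them at 1 TPM or more in every library, and that of 5 leaf markers between 34018 and 54947 TPM. The library labelled nrpe1 replicate 3 stood apart in pollen markers, with 43.3 TPM summed over 6 genes against at most 0.89 TPM in each other library. In whole-tissue RNA, fewer cells of a type and less RNA per cell cannot be told apart.

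AGO1 and AGO2 are themselves targets of microRNAs, miR168 and miR403. The mature microRNAs and the best matching sites in AGO1, AGO2 and AGO3 are shown because these members stand apart from the other 7 in them. Sequences are from the RefSeq annotation and genome of TAIR10.1 and are written 5′ to 3′. miR168a-5p lies at chr4:10578652-10578672 and miR403-3p at chr2:19415154-19415174, both on the forward strand. Capitals mark the seed (bases 2 to 8) in the microRNAs and, in the sites, the bases opposite the seed.
miR168a-5p: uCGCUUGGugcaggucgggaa
AGO1 site: uucccgagcugcaUCAAGCUa
miR403-3p: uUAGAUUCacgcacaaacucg
AGO2 site: ggaguuugugcguGAAUCUAa
AGO3 site: gauguuugugcguGAAUCUAa

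The site of miR168a-5p in AGO1 lies in the coding sequence on chromosome 1 from 17891529 to 17891549 (reverse strand), and 18 of its 21 bases pair with the microRNA. With a penalty of 1 for a mismatch and 0.5 for a G:U pair, its score of 2.5 was the lowest among 31342 genes with a transcript in the annotation. The next best member was AGO2, with a score of 5.5, which ranked at 233. For miR403-3p, 3 genes scored 3 or less. AGO2 ranked first of all genes with a score of 1 (20 of 21 bases paired). AGO3 came next with a score of 3 (18 of 21 bases paired), level with a gene outside the family. Both sites lie in the 3′ untranslated region, on chromosome 1 from 11185223 to 11185243 in AGO2 and from 11192399 to 11192419 in AGO3 (forward strand). The other 8 members scored 6 or more for miR403-3p. The precursors of these microRNAs were hardly measured. MIR168A (AT4G19395) had 3.6, 1.4 and 0 TPM in the libraries labelled nrpe1 and 2.18, 1.5 and 0 TPM in those labelled hex, and was listed at 0 in all wild-type libraries. MIR168B and MIR403 were listed at 0 in all 9 libraries.

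The members differed widely in level. AGO1 was the highest member in all 9 libraries, with 32.19 to 42.02 TPM, which was 52.8% to 57.8% of the summed level of the family. That sum lay between 58.8 and 72.7 TPM. AGO4 (7.36 to 14.36 TPM) and AGO10 (8.47 to 11.16 TPM) came next. Their ranges overlap, with AGO4 above AGO10 in 6 libraries and below it in labelled nrpe1 replicates 2 and 3 and labelled hex replicate 3. AGO2 (3.02 to 6.11 TPM) and AGO7 (3.48 to 6.31 TPM) also overlap with each other. AGO6 had 0.34 to 0.97 TPM and AGO3 0.02 to 0.59 TPM, so neither reached 1 TPM in any library. AGO5, AGO8 and AGO9 stayed at or below 0.07 TPM. Thus 5 of the 10 members, AGO1, AGO2, AGO4, AGO7 and AGO10, passed the filter of at least 1 TPM in at least 3 libraries and were tested. The tables hold no read totals, so the depth behind a TPM value is unknown.

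**Figure D1:**
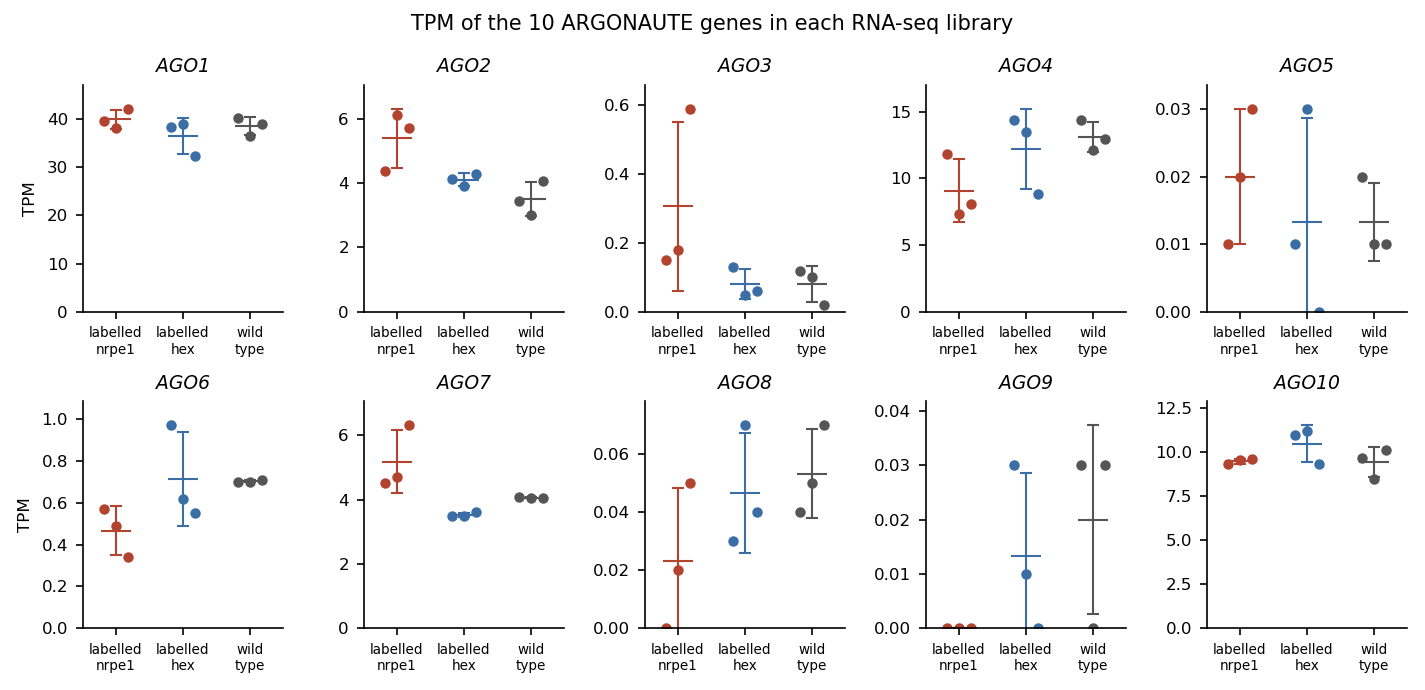
TPM (vertical axes, each starting at 0) of AGO1 to AGO10 in the libraries labelled nrpe1, labelled hex and wild type. Points are the 3 libraries of a group, and bars are the mean ± SD, clipped at 0. AGO1 lies between 32.19 and 42.02 TPM, whereas AGO5, AGO8 and AGO9 do not exceed 0.07 TPM.

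In the clade of AGO1, the measured levels differed little between groups. AGO1 (AT1G48410), the main carrier of microRNAs, lies on the reverse strand of chromosome 1 from 17885633 to 17892632. It had 39.49, 38.13 and 42.02 TPM in the libraries labelled nrpe1, 38.20, 38.89 and 32.19 TPM in those labelled hex, and 40.15, 36.38 and 38.94 TPM in wild type. The groups overlap, and the lowest value is that of the library labelled hex replicate 3. AGO10 (AT5G43810, chromosome 5, 17610744 to 17616907, forward strand), which holds miR165 and miR166 away from AGO1 in the shoot meristem, had 9.28, 9.52 and 9.56 TPM in the libraries labelled nrpe1, 10.95, 11.16 and 9.28 TPM in those labelled hex, and 9.67, 8.47 and 10.11 TPM in wild type. These groups overlap too. AGO5 (AT2G27880, chromosome 2, 11871378 to 11876989), known from germline cells, had at most 0.03 TPM in each group.

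The members of the clade of AGO2, AGO3 and AGO7 all had their highest values in the libraries labelled nrpe1, and AGO2 passed the test against wild type. AGO2 (AT1G31280, chromosome 1, 11181504 to 11185396), an antiviral AGO, had 4.37, 6.11 and 5.71 TPM in these libraries, 4.13, 3.90 and 4.29 TPM in those labelled hex, and 3.44, 3.02 and 4.08 TPM in wild type. Every library labelled nrpe1 was above every other library, and the means were 5.40 ± 0.911 TPM in these and 3.51 ± 0.534 TPM in wild type (SD, n = 3 each), a ratio of 1.54. AGO3 (AT1G31290, chromosome 1, 11188120 to 11192585), the neighbour of AGO2, lies 2723 bp beyond its end, with no annotated gene between. It had 0.15, 0.18 and 0.59 TPM in the libraries labelled nrpe1, 0.13, 0.05 and 0.06 TPM in those labelled hex, and 0.12, 0.10 and 0.02 TPM in wild type. Its highest value, 0.59 TPM, was in the library with pollen markers, and the part of those cells in it was not tested. AGO2 and AGO3 are close relatives, so the split of shared reads between them is uncertain. AGO7 (AT1G69440, chromosome 1, 26101407 to 26105328, reverse strand) binds miR390 and starts the production of small RNAs from TAS3 transcripts. It had 4.53, 4.70 and 6.31 TPM in the libraries labelled nrpe1, 3.48, 3.49 and 3.61 TPM in those labelled hex, and 4.07, 4.05 and 4.05 TPM in wild type. All libraries labelled nrpe1 were above wild type and all those labelled hex below it. The means were 5.18 ± 0.982 TPM in the libraries labelled nrpe1, 3.53 ± 0.0723 TPM in those labelled hex and 4.06 ± 0.0115 TPM in wild type (SD, n = 3 each).

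miR390 is shown with its seed in capitals because AGO7 is its dedicated carrier. It lies at chr2:16061971-16061991 on the forward strand. Its first base is A, where miR168a-5p and miR403-3p begin with U. MIR390A and MIR390B encode the same mature sequence, and both genes were listed at 0 TPM in all 9 libraries.
miR390a-5p: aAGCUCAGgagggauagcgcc

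In the clade of AGO4, whose members bind the small RNAs of RdDM, AGO4 and AGO6 had lower values in every library labelled nrpe1 than in wild type, and AGO4, the one that could be tested, did not pass. AGO4 (AT2G27040, chromosome 2, 11536502 to 11542391, reverse strand) had 11.81, 7.36 and 8.09 TPM in these libraries, 14.36, 13.48 and 8.80 TPM in those labelled hex, and 14.33, 12.11 and 12.94 TPM in wild type. The libraries labelled nrpe1 did not overlap with wild type, with a ratio of means of 0.692. They overlapped with those labelled hex, since hex replicate 3 lay within their range. AGO6 (AT2G32940, chromosome 2, 13971916 to 13977521, reverse strand) had 0.57, 0.49 and 0.34 TPM in the libraries labelled nrpe1, 0.97, 0.62 and 0.55 TPM in those labelled hex, and 0.70, 0.70 and 0.71 TPM in wild type. AGO9 (AT5G21150, chromosome 5, 7192239 to 7198381), which acts in the ovule, was listed at 0 in all libraries labelled nrpe1 and had at most 0.03 TPM in the others. AGO8 (AT5G21030, chromosome 5, 7139817 to 7144272), with 14 genes between it and AGO9, did not exceed 0.07 TPM.

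Groups were compared for all 17459 genes that passed the filter with limma on log2(TPM + 1), in 1 model of all 9 libraries, with Benjamini-Hochberg adjustment. A gene was called at an adjusted p below 0.05. Against wild type, 1 of the 5 tested members was higher in the libraries labelled nrpe1 and none was lower, whereas 15.3% of all tested genes were called higher and 7.68% lower. After quantile normalization 7.82% of the tested genes were called higher and 11.1% lower, and after median-ratio rescaling 7.89% higher and 11.9% lower, so the split of the background depends on the scaling, and 1 of 5 members is too few to set against it. The called member was AGO2, with a log2 difference of 0.50 (standard error 0.13, limma adjusted p = 0.0393). AGO4 had −0.51 (standard error 0.20, limma adjusted p = 0.0868) and AGO7 0.28 (standard error 0.11, limma adjusted p = 0.0946), which did not pass. AGO1 had 0.05 (standard error 0.09) and AGO10 0.01 (standard error 0.10), and both estimates became negative under quantile normalization (−0.05 and −0.10). The median over the 5 members was 0.05, beside 0.08 over all tested genes. Without regard to the filter, 3 members (AGO2, AGO3 and AGO7) had every library labelled nrpe1 above every wild-type library, as did 23.5% of genes with any signal, and 2 members (AGO4 and AGO6) had every library below, as did 14.1%.

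The call of AGO2 was lost when some single libraries were left out. Its adjusted p (limma, Benjamini-Hochberg) was 0.133 when nrpe1 replicate 2 was left out and 0.113 when nrpe1 replicate 3 was. It was 0.0526 without the library labelled hex replicate 1, 0.061 without hex replicate 2, and 0.115, 0.122 and 0.0812 without wild-type replicates 1, 2 and 3. Leaving out nrpe1 replicate 1 lowered it to 0.00499, and AGO4 (adjusted p = 0.0163) and AGO7 (0.0408) then passed as well. Without the library labelled hex replicate 3, AGO2 kept its call (0.0329) and AGO4 passed (0.044). The difference of AGO2 stayed between 0.42 and 0.62 in all 15 alternative fits. Without labelled hex replicate 1 or 2 it kept its value of 0.50, and its standard error went from 0.13 to 0.14. The background moved with the same libraries, with 34 genes called in this comparison when nrpe1 replicate 2 was left out and 8038 when nrpe1 replicate 1 was, against 4015 with all 9 libraries. An adjusted p depends on the p-values of all tested genes, so the loss of the call is not particular to AGO2.

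In the libraries labelled hex, none of the 5 tested members was called against wild type, by limma at an adjusted or at an unadjusted p below 0.05 (4.74% of all tested genes had an unadjusted p below it), whereas 0.281% of all tested genes were called higher and 0.115% lower. The log2 differences were −0.08 for AGO1, 0.18 for AGO2, −0.12 for AGO4, −0.16 for AGO7 and 0.14 for AGO10, with standard errors of 0.09 to 0.20. Only AGO7 had no overlap between these groups, with every library labelled hex below wild type, a pattern that 4.69% of the tested genes showed.

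When the libraries labelled hex were set against those labelled nrpe1, none of the 5 members passed the adjusted threshold, where 0.246% of all tested genes were called higher and 0.601% lower. AGO2 and AGO7 had an unadjusted limma p below 0.05, as did 28.03% of all tested genes. AGO7 was lower by a log2 difference of −0.44 (standard error 0.11, limma adjusted p = 0.117), and AGO2 by −0.32 (standard error 0.13, limma adjusted p = 0.164). For both genes every library labelled hex lay below every library labelled nrpe1, as for 14.7% of the tested genes. Without the library labelled nrpe1 replicate 1, AGO2, AGO4 and AGO7 passed, with limma adjusted p of 0.028, 0.0448 and 0.0177. AGO4 had a difference of 0.39 with all libraries (standard error 0.20, limma adjusted p = 0.226).

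**Figure D2:**
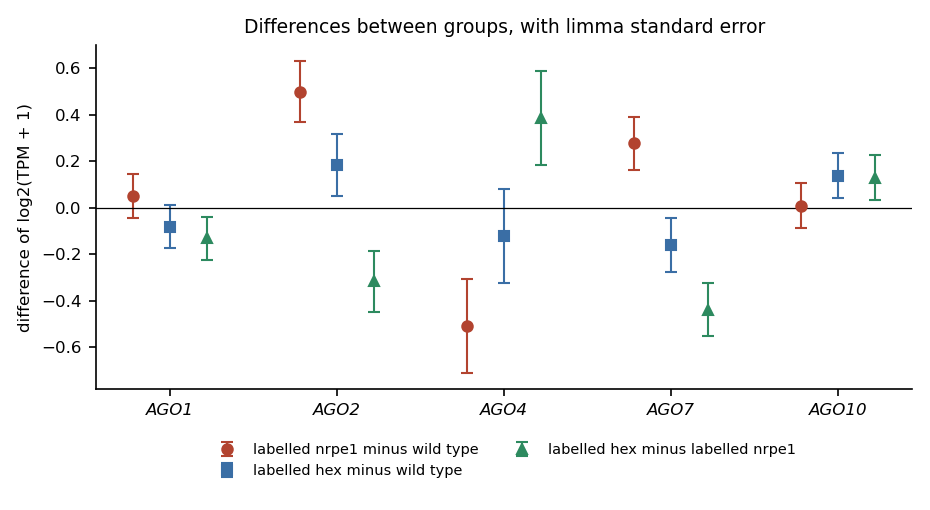
Differences of log2(TPM + 1) (vertical axis) for the 5 tested members, as estimated by limma, with bars of 1 standard error. Circles are labelled nrpe1 minus wild type, squares labelled hex minus wild type, and triangles labelled hex minus labelled nrpe1. AGO2 (0.50) is the only member called in any of the 3 comparisons.

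AGO4 varied beside some leaf genes. Its 4 lowest libraries, labelled nrpe1 replicates 2 (7.36 TPM), 3 (8.09 TPM) and 1 (11.81 TPM) and labelled hex replicate 3 (8.80 TPM), were also the 4 with the lowest sum of 5 leaf markers. The sum was 36555, 34018, 44620 and 45882 TPM in these libraries, against 53022 to 54947 TPM in the other 5. The 5 markers did not move together. RBCS1A and RBCS3B, which encode Rubisco subunits, make up most of the sum and were lower in these 4 libraries than in the other 5. LHCB2.1, a light-harvesting protein, was instead highest in the same 4, with 6073 to 7237 TPM against 5656 to 6029 TPM, and RCA, the Rubisco activase, overlapped, with 5171 TPM in labelled nrpe1 replicate 3 and 5085 TPM in wild-type replicate 1. The part of tissue composition in the level of AGO4 was not tested.

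Markers of the salicylic acid response tended, like AGO2, to be higher in the libraries labelled nrpe1 than in wild type, but did not follow it library by library. All 7 had an estimate above 0 in the libraries labelled nrpe1 against wild type, as did 10306 of all 17459 tested genes. PR2 and PAD4 were called, with log2 differences of 1.47 (standard error 0.44, limma adjusted p = 0.045) and 1.19 (standard error 0.31, limma adjusted p = 0.0393). Of all tested genes 15.3% were called higher (7.82% after quantile normalization). Every library labelled nrpe1 was above every wild-type library for PR1, PR2, ICS1 and PAD4, as for 30.3% of the tested genes. For PR1 this rests on 0.06 TPM in labelled nrpe1 replicate 3 against 0 TPM in wild type. The sum of the 7, in which WRKY70 has the largest share, was 166, 215 and 128 TPM in the libraries labelled nrpe1 and 136, 107 and 75.6 TPM in wild type, and the groups overlap. Within wild type, replicate 3 had the most AGO2 (4.08 TPM) and the lowest sum. In labelled hex replicate 3 the sum was 205 TPM, against 63.4 and 75.9 TPM in the other libraries labelled hex, and AGO2 had its highest value of that group there, 4.29 TPM, against 4.13 and 3.90 TPM. The part of a defence response in the levels of AGO2 or AGO4 was not tested.

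**Figure D3:**
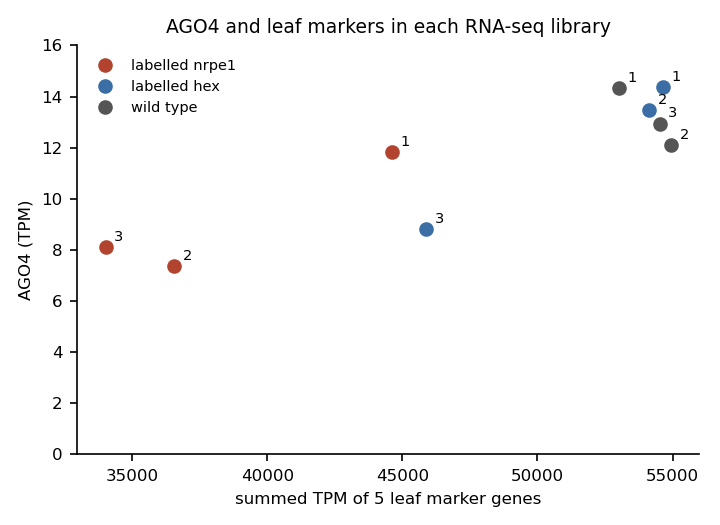
AGO4 (vertical axis, TPM) against the summed TPM of 5 leaf marker genes (horizontal axis) in each of the 9 RNA-seq libraries. Numbers are replicates and colours are groups. The 4 libraries with the lowest leaf markers, 34018 to 45882 TPM, have 7.36 to 11.81 TPM of AGO4, and the other 5 have 12.11 to 14.36 TPM; of the 5 markers, LHCB2.1 runs the other way.

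Genes that act with the AGO proteins were read from lists. Among 12 genes of small RNA production, 3 were higher and none lower in the libraries labelled nrpe1 than in wild type. They were SGS3, which stabilises RNA for RDR6, and the Dicer genes DCL2 and DCL4. SGS3 had 11.19, 12.31 and 15.15 TPM in these libraries, against 8.58, 7.99 and 10.02 TPM in wild type (log2 difference 0.49, standard error 0.12, limma adjusted p = 0.039). DCL2 had 6.11, 6.98 and 9.25 TPM against 5.15, 4.56 and 5.28 TPM in wild type (0.48, standard error 0.13, limma adjusted p = 0.0404). DCL4 had 3.19, 3.37 and 3.58 TPM against 2.69, 2.52 and 2.49 TPM in wild type (0.30, standard error 0.09, limma adjusted p = 0.0446). Each of these 3 calls was lost when any 1 of 7 libraries was left out, as was that of AGO2. These libraries were labelled nrpe1 replicates 2 and 3, labelled hex replicates 1 and 2, and every wild-type replicate. The highest limma adjusted p over 15 alternatives was 0.133 for SGS3 and DCL2 and 0.135 for DCL4. Of all genes 15.3% were called higher (7.82% after quantile normalization), and the median of the list was 0.13 beside 0.08 over all tested genes. None of the 12 was called in the libraries labelled hex against wild type, where 1 had an unadjusted limma p below 0.05.

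The largest difference in the lists was at SQN (AT2G15790, SQUINT), a cyclophilin that assists AGO1. SQN had 28.63, 38.62 and 23.35 TPM in the libraries labelled nrpe1, 5.94, 5.90 and 3.82 TPM in those labelled hex, and 7.25, 7.65 and 7.51 TPM in wild type. Its log2 difference was 1.85 in the libraries labelled nrpe1 against wild type (standard error 0.19, limma adjusted p = 0.00225). The libraries labelled hex differed by −2.32 from those labelled nrpe1 (standard error 0.19, limma adjusted p = 0.00034). The ratio of means of the libraries labelled nrpe1 to wild type was 4.04 for SQN and 1.04 for AGO1. FBW2 (AT4G08980), the F-box protein that marks AGO1 for degradation, had 30.87, 40.10 and 37.73 TPM in the libraries labelled nrpe1 against 22.09, 24.10 and 25.40 TPM in wild type (log2 difference 0.58, standard error 0.11, limma adjusted p = 0.0356). SQN kept both calls in all 15 alternatives, with limma adjusted p of at most 0.0207 against wild type, whereas FBW2 lost its call without any 1 of the same 7 libraries (at most 0.133). Both belong to a list of 7 genes of AGO loading and turnover, of which no other was called and whose median was 0.01. Of all tested genes 15.3% were called higher in the libraries labelled nrpe1 against wild type (7.82% after quantile normalization). Against wild type none of the 7 was called in the libraries labelled hex, where 1 (SQN) had an unadjusted limma p below 0.05.

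Of 8 targets of the AGO7 and AGO10 branches, ARF2 alone was called, with 82.45, 97.30 and 111.61 TPM in the libraries labelled nrpe1 against 74.92, 67.21 and 75.31 TPM in wild type (log2 difference 0.41, standard error 0.11, limma adjusted p = 0.0408). In this comparison 15.3% of all tested genes were called higher (7.82% after quantile normalization). ARF2 is one of the auxin response factors cut by TAS3-derived small RNAs, and its call was lost without any 1 of the same 7 libraries (limma adjusted p of at most 0.133). The TAS3 transcript itself had 16.42, 13.75 and 14.60 TPM in the libraries labelled nrpe1 and 10.14, 15.55 and 11.20 TPM in wild type, and the groups overlap. None of the 5 HD-ZIP III genes that miR165 and miR166 target (PHB, PHV, REV, CNA and ATHB8) was called in any comparison. Of the 8 genes on the Pol V side of RdDM, where AGO4 acts, 7 were tested and none was called against wild type in either mutant group, although 1 in each had an unadjusted limma p below 0.05. It was DMS3 in the libraries labelled nrpe1 (log2 difference −0.47). In those labelled hex it was NRPE1 (−0.74), which is also a mutated gene used to check the labels. The list of small RNA precursors, with 6 of 10 genes tested, held no called gene in any comparison, and 1 had an unadjusted limma p below 0.05 in the libraries labelled hex against those labelled nrpe1.

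**Figure D4:**
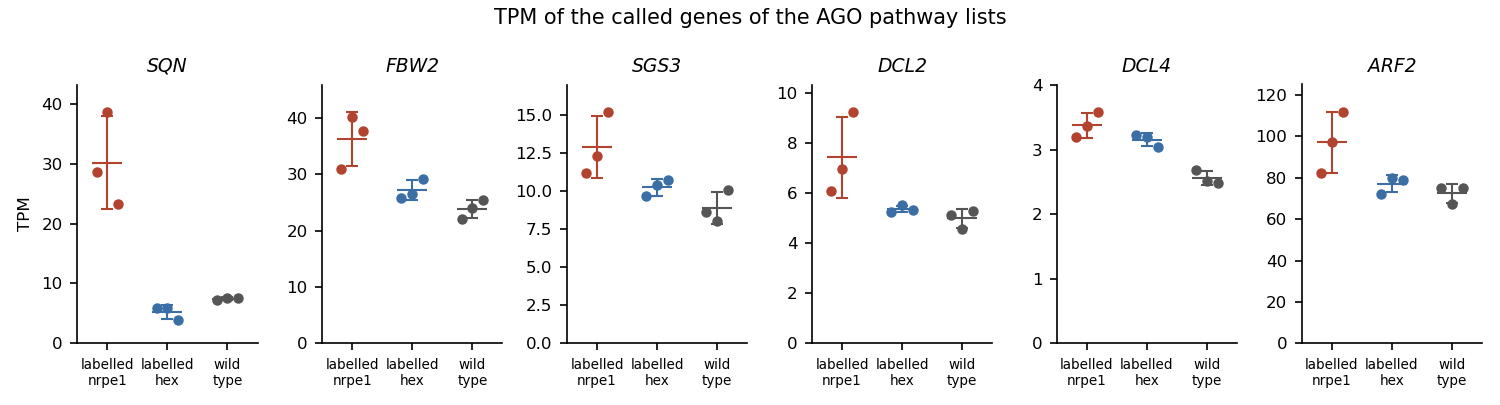
TPM (vertical axes, each starting at 0) of the 6 genes of the AGO pathway lists that were called in the libraries labelled nrpe1 against wild type, by group as for the AGO genes. Points are libraries and bars the mean ± SD (n = 3). SQN has 23.35 to 38.62 TPM in the libraries labelled nrpe1, against 7.25 to 7.65 TPM in wild type.

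The genes most like AGO2 over the 9 libraries, by the root mean square difference of centred log2(TPM + 1), were CIPK23 (AT1G30270, 0.0283), GATA3 (AT4G34680, 0.0395) and RAN1 (AT5G44790, 0.0468).

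Peaks near the members were taken from the ChIP-seq lists. Peaks were kept if they had q below 0.01, were enriched more than 2-fold and lay at most 1 kb from the annotated gene. Fold enrichments are those of MACS2 over its own background and serve as a description, because peak lists cannot be scaled against each other. In wild type, 6 of the 10 members had a MORC7-FLAG peak in at least 2 of 3 libraries, namely AGO1, AGO5, AGO6, AGO7, AGO9 and AGO10, beside 25.1% of all annotated genes. The members are long, between 3893 and 7000 bp, and of the 3039 protein-coding genes within these lengths 28.9% had such a peak. No member had a peak past the threshold in either FLAG library without a tag, where 1.23% and 2.71% of all genes and 1.45% and 2.4% of those as long as the members had one, or in the HA control (0.0238% and 0.0658%). By library, the count of members was 6 in replicate 1 (27.6% of all genes, 31% of those as long), 4 in replicate 2 (23.5% and 32.2%) and 4 in replicate 3 (29.3% and 29.3%). The peaks were weak, with fold enrichments of 2.06 to 3.60. None passed a stricter threshold (q below 0.001, fold above 3) in at least 2 libraries, a rule that can only lower the count for all genes too.

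The peaks lay near the ends of the genes. AGO6 had one just past its 3′ end in all 3 wild-type libraries, from 13971550 to 13971990 (fold enrichment 2.68), from 13971471 to 13971997 (3.60) and from 13971605 to 13972010 (2.33). A further peak before its start (2.21 and 2.65 in replicates 1 and 2) overlapped or lay within 37 bp of COP1, the divergent neighbour that encodes a light signalling regulator. AGO10 had a peak past its 3′ end in replicates 1 (2.23) and 3 (2.81) and one at its 5′ end in replicates 2 (2.39) and 3 (2.69). At AGO1 the summits were at −26 and −2 bp from the annotated start in replicates 1 and 2 (2.13 and 2.68). AGO5 had peaks at its start in the same pair of libraries (2.18 and 2.34). AGO7 had peaks at its 5′ end in replicates 1 (2.58) and 3 (2.06) and one past its 3′ end in replicate 1 (2.44). Within the 5′ peak of AGO7, replicate 2 of the FLAG control without a tag also listed a peak, at 1.63 and under the threshold. AGO9 had summits at −476 and −431 bp from its start in replicates 1 and 3 (2.17 and 2.11). AGO2, AGO3, AGO4 and AGO8 had none. Of the tested members, AGO2, which was called, and AGO4, which was not, were thus without a MORC7 peak. A link between peaks and RNA levels was not tested. With 1 library left out, both others had to have a peak, so the count could only fall or stay, for all genes too. The number of members was then 2 (AGO6 and AGO10) without MORC7-FLAG replicate 1, and 4 without either other library.

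The stretches past the 3′ ends of AGO6 and AGO10 are shown because they carry the peaks found in the most MORC7 libraries. Each is 200 bases around the median summit, outside all annotated genes, on the forward strand of TAIR10.1, with CG dinucleotides, the sites that MET1 methylates, in capitals. The AGO6 stretch lies at chr2:13971678-13971877 and the AGO10 stretch at chr5:17617034-17617233.
AGO6 stretch: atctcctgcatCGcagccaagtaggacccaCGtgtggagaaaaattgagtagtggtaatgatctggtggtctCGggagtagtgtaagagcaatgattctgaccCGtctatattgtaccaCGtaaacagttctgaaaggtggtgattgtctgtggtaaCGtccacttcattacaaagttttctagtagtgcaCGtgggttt
AGO10 stretch: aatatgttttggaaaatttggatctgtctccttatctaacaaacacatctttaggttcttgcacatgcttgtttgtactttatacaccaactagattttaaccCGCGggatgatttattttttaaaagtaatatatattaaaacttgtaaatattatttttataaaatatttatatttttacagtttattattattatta

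The stretches differ in composition. The AGO6 stretch has 7 CG dinucleotides and 45% G and C, and the AGO10 stretch 2 CG dinucleotides and 22.5% G and C. The nearest other gene is ZFN2 at 2721 bp from the AGO6 stretch and AT5G43822 at 1507 bp from the AGO10 stretch.

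The MORC7 peaks at these stretches differed in the mutant lists that held them past the threshold. Over all MORC7 peaks, the authors found its localization nearly unchanged in nrpd1, nrpe1, nrpd1 nrpe1 and dms3, and strongly reduced in met1. The AGO10 peak past the 3′ end was present in both nrpd1 libraries (3.58 and 4.22), both nrpe1 libraries (2.55 and 2.96), nrpd1 nrpe1 replicate 1 (3.37) and all dms3 libraries (2.42, 2.81 and 2.03), against 2.23 and 2.81 in wild-type replicates 1 and 3. No peak was listed there in met1. The AGO6 peak past the 3′ end was past the threshold in both nrpe1 libraries (2.33 and 3.68), all dms3 libraries (2.33, 2.76 and 2.34) and met1 (2.93), against 2.33 to 3.60 in wild type. It was absent from both nrpd1 lists, and nrpd1 nrpe1 replicate 1 had it at 1.86, under the threshold. Only 4048 peaks were past the threshold in nrpd1 nrpe1 replicate 2, and no member had one.

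The number of members with a MORC7 peak ran from 0 to 4 in the mutants. It was 1 in each nrpd1 library (AGO10), beside 21.8% and 24.4% of all genes and 21.4% and 22.9% of those as long as the members. In nrpe1 it was 3 (AGO6, AGO7 and AGO10, beside 17.5% and 21.4%) and 4 (AGO1 as well, beside 22.8% and 27.2%). In nrpd1 nrpe1 it was 1 (AGO10, beside 21.4% and 21.7%) and 0 (beside 12.1% and 11%). In dms3 it was 2 (AGO6 and AGO10, beside 18.3% and 19.9%), 4 (AGO1, AGO6, AGO7 and AGO10, beside 27.8% and 32.1%) and 3 (AGO6, AGO7 and AGO10, beside 19.3% and 21.5%). In met1 it was 2 (AGO1 and AGO6, beside 22.3% and 23%). AGO5 and AGO9 had a peak past the threshold within 1 kb in wild type and in none of these mutant libraries, but both had weaker ones there. AGO5 had them (1.36 to 1.85) in nrpe1, nrpd1 nrpe1, dms3 and met1, and AGO9 in nrpd1 replicate 2 (1.69), nrpd1 nrpe1 replicate 1 (1.78) and dms3 replicate 2 (1.85). A peak farther from AGO9, 1172 to 1357 bp before its start, was listed in 9 of these 10 libraries, with fold enrichments of 2.16 to 3.52, against 2.91, 2.09 and 3.56 in the 3 wild-type libraries, where it lay 1219 to 1577 bp before the start. These differences between lists were not tested.

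MORC4-FLAG replicate 1 had peaks at AGO5 (2.58) and AGO6 (2.98), at the same ends as MORC7, beside 6.25% of all genes and 9.64% of those as long as the members. Replicate 2 had none at the members, beside 19.3% and 17.7%.

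The ZF-DMS3 fusion was found near more members than MORC7. The HA library of ZF-DMS3-HA plants had peaks within 1 kb of 9 members, all but AGO8, beside 50.6% of all genes and 66.7% of genes as long as the members. The highest were at AGO10 (5.61), AGO2 (4.89), AGO7 (4.82), AGO9 (4.44) and AGO1 (4.30). The FLAG library of the same plants had MORC7 peaks at 5 members (AGO1, AGO6, AGO7, AGO9 and AGO10), beside 32.3% of all genes and 38.7% of those as long. All 5 also had a MORC7 peak in wild type, and at AGO2, AGO3, AGO4 and AGO5, where HA peaks were present (4.89, 2.78, 3.25 and 2.87), no MORC7 peak was past the threshold in these plants. Of these 4, AGO5 did have a MORC7 peak in wild type, and in these plants it had one at 1.81, under the threshold.

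Pol II peaks lay within 1 kb of the same 7 members in hex and in wild type (AGO1, AGO4, AGO5, AGO6, AGO8, AGO9 and AGO10), beside 41% of all genes in hex and 42.6% in wild type. For genes as long as the members the shares were 65.4% in hex and 67.5% in wild type. AGO1 had the highest peak near its 3′ end, with a fold enrichment of 4.10 in hex and 3.85 in wild type, and at its 5′ end 3.12 in hex and 3.80 in wild type. AGO2 and AGO7, whose RNA reached 3.02 TPM or more in every RNA-seq library, had no Pol II peak past the threshold. Weaker ones were listed for AGO2 in hex (1.51 within the gene and 1.95 just past its 3′ end) and for AGO7 in wild type (1.64). AGO5, AGO8 and AGO9, whose RNA was at or below 0.07 TPM, had their highest peaks with summits past the annotated 3′ ends, within 1 kb. These reached 2.04, 2.45 and 3.25 in hex and 2.28, 2.99 and 3.03 in wild type. Further peaks lay before the start of AGO8 (2.02 in hex and 2.24 in wild type) and at the start of AGO9 in wild type (2.38). Neighbouring genes were not looked up for Pol II peaks, so those outside a member may belong to another gene. With 1 library each, Pol II in hex and wild type has no replicate check. The authors used floral tissue for ChIP-seq, whereas the RNA-seq libraries had high leaf and low floral markers. Pol II and RNA may thus come from different tissues.

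**Figure D5:**
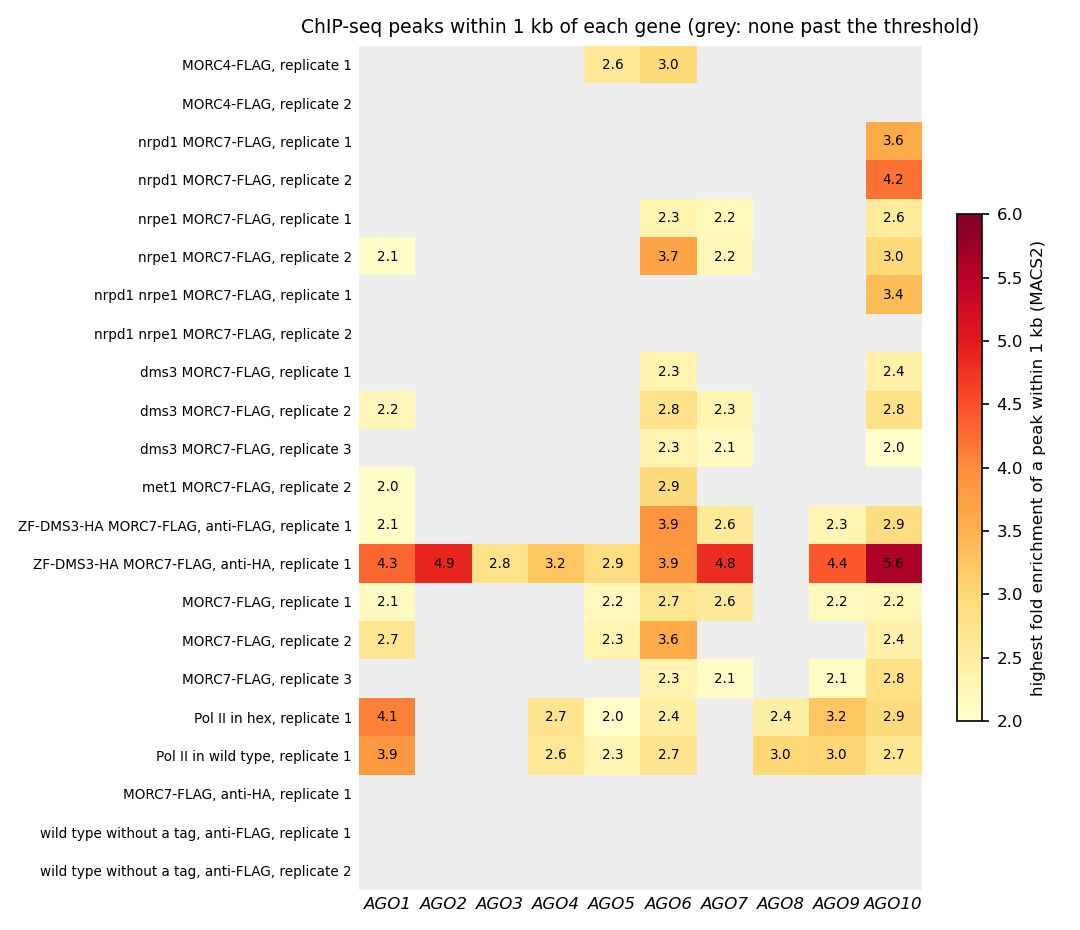
Highest fold enrichment over the MACS2 background of a peak within 1 kb of each member (columns) in each ChIP-seq library (rows). Grey marks no peak past the threshold (q below 0.01, fold above 2). AGO10 and AGO6 have MORC7 peaks in the most libraries, and the 3 control libraries in the lowest rows have none at any member.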

How the data were processed

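Per the labels and files, RNA-seq values are TPM, which the authors deposited as 1 table per library over 33602 genes. The submitters' notes name TAIR10 and RSEM 1.3.1. In the table of nrpe1 replicate 2 the values stand 2 times, once under a header of hex replicate 2, and were read once. The kit marks strand, and the strand setting of the counting is not given in the sources used here. For ChIP-seq the authors used Bowtie2 2.1.0, SAMtools 1.9 and MACS2 2.1.1 and deposited a peak list for each library, with positions, fold enrichment (a ratio over background) and −log10 q. The controls given to MACS2 are not given in the sources used here. Genes and sequences came from RefSeq TAIR10.1, whose nuclear chromosomes have the same lengths, with 1-based coordinates.

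Differences were tested on log2(TPM + 1) with limma 3.58.1 in R 4.3.3 (trended eBayes, Benjamini-Hochberg adjustment) for the 17459 genes that reached 1 TPM in 3 or more libraries. This scale understates the change of low genes. Peaks were processed in Python 3.11.15 (pandas 2.3.3, NumPy 2.4.6, matplotlib 3.10.9 for plots). Both steps were first tested on simulated data. TPM carries no read totals, so depth is unknown. All 10 members are named with their values. From the other lists, up to 3 called genes with the lowest adjusted p are named, and for a called member its 3 closest genes in pattern. MORC genes and NRPE1 were used to check labels. Members and lists were chosen with earlier results of these data known, and the background of genes as long as the members was added after the peaks were seen. The replicate number was not used as a block.

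Alternatives were a pseudocount of 0.1, no filter, quantile normalization, median-ratio rescaling, only the 6 libraries compared, a replicate block, a 2-fold minimum and each library left out. For peaks they were all deposited peaks, a stricter threshold, direct overlap, 2 kb, and a peak in any or every library. Samples with other data were not analysed here.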

Additional observations from a re-analysis of the deposited data

Results flagged for a closer look

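SQN differed between the mutant groups in its change against wild type. Its log2 difference between these groups, hex minus nrpe1, was −2.32 (standard error 0.19, limma adjusted p = 0.00034), with every library labelled hex below every library labelled nrpe1. Of the genes used to check the labels, 4 differed as well, while NRPE1 (limma adjusted p = 0.1002) and MORC7 (0.0583) did not pass. MORC1 had 1.67 (standard error 0.09, limma adjusted p = 2.7e-05), MORC2 1.52 (standard error 0.10, adjusted p = 6.7e-05) and MORC6 1.55 (standard error 0.14, adjusted p = 0.000702), all higher in the libraries labelled hex. MORC4 had −1.10 (standard error 0.10, limma adjusted p = 0.00055) and was higher in those labelled nrpe1. No ARGONAUTE gene passed the test of this difference.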

How the results depend on the processing

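Of 225 alternative values of single members, 202 kept direction and side of the threshold, 9 lost a call (all AGO2), 7 gained one and 7 of members not called changed sign (AGO1 and AGO10 in labelled nrpe1 against wild type, AGO1 and AGO4 in labelled hex against wild type). No call was reversed. Without the filter, genes called in the libraries labelled nrpe1 against wild type fell to 417 of all genes and 0 members, where the main count was 4015 and 1. With only the 6 libraries compared these were 136 and 0, and with a 2-fold minimum 688 and 0. Labelled hex against labelled nrpe1, the 148 calls became 236 without the filter and 83 with only the 6 libraries. Leaving out 1 library gave 34 to 8038 genes and 0 to 3 members in labelled nrpe1 against wild type, 34 to 86 genes in labelled hex against wild type (main 69), and 60 to 5568 genes and 0 to 3 members in labelled hex against labelled nrpe1. The share of calls that were higher in labelled nrpe1 was 66.6%, against 41.2% with quantile normalization and 39.9% with median-ratio rescaling. The cause of these shifts was not tested.

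The replicate numbers name libraries only. Deviations of same-numbered libraries correlated between −0.351 and 0.596. With the replicate block, 5572 genes and 2 members (AGO2, adjusted p = 0.0266, and AGO4, 0.0396, by limma) were called in labelled nrpe1 against wild type, 596 genes in labelled hex against labelled nrpe1 and 76 in labelled hex against wild type. The block changed no other call of a member. Of the 6 called genes of the other lists, SQN alone kept its calls in all 15 alternatives, and the other 5 kept them in 3 to 7, with no change of sign.

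Members with a MORC7 peak in wild type numbered 0 at the stricter threshold and 2 when every library had to have one (main 6). With 1 library left out, so that both others had to have one, they numbered 2 to 4. Each of these rules can only lower or keep the count, for all genes as for the members, so a fall is not read as a trait of the members. The unknown depth and 3 libraries a group limit what can be seen of AGO3, AGO5, AGO6, AGO8 and AGO9, which stayed below 1 TPM.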
